A study of Mus musculus with 12 samples.

Results

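RNA of 31 genes that write, erase or feed acyl marks on histones was compared between mouse retinas cultured with 5 mM and with 25 mM glucose. The genes were taken as named families, with earlier results of these data known: 10 lysine acetyltransferases, 11 zinc-dependent deacetylases (Hdac1 to Hdac11), 7 sirtuins and 3 enzymes that supply acetyl-CoA. All 31 were matched by Ensembl identifier among the 53707 genes of the deposited table, and all 31 had enough counts to be tested. Retinas came from wild type C57BL/6J mice at postnatal day 28, freed of sclera and retinal pigment epithelium, and were kept as explants for 48 hours, so both groups share the genotype, the age, the culture time and the medium except for its glucose. Each group held 3 biological replicates, each sequenced as 2 technical replicates that belong to batch 1 and batch 2, 12 libraries in all. The sum of the 2 technical replicates was the unit of comparison, and the labels do not say whether a biological replicate was 1 mouse or several, so p-values measure the spread between these replicates. An explant holds every cell type of the retina, so fewer cells of a type and less RNA per cell cannot be told apart.

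Lysine acetyltransferases take the acetyl group of acetyl-CoA and place it on histone lysines, which loosens the contact of histone and DNA and creates binding sites for bromodomain proteins. Deacetylases take it off, the zinc-dependent ones by hydrolysis and the sirtuins by using up NAD+. Some of these enzymes also handle other acyl groups: EP300 can transfer lactyl groups, HDAC1, HDAC2 and HDAC3 can remove them, and SIRT5 removes succinyl and malonyl groups. Acetyl-CoA for the nucleus comes from citrate through ACLY, which ties it to glucose, and from acetate through ACSS2, while ACSS1 makes it inside mitochondria. The photoreceptors of the retina turn much of their glucose into lactate even when oxygen is present, and the study asked how glucose supply bears on gene expression in this tissue.

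The sequences below are the reference promoters of 3 of these genes, from RefSeq on GRCm38.p6, 250 bases before to 50 after the transcription start, 5′ to 3′ on the strand of the gene. Sirt4 and Acss1 are shown because they had the largest higher and the largest lower value among genes whose conditions did not overlap, and Acly because it links glucose to nuclear acetyl-CoA. Capitals mark the GC box, GGGCGG or its reverse CCGCCC on the other strand.

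Sirt4 (chr5:115484248-115484547, minus strand): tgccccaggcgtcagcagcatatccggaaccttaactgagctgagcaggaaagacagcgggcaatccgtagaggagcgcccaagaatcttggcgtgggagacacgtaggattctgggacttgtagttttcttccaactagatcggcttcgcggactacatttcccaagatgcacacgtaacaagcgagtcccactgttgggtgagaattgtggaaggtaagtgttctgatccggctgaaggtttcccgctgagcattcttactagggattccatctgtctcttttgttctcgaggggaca

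Acss1 (chr2:150668191-150668490, minus strand): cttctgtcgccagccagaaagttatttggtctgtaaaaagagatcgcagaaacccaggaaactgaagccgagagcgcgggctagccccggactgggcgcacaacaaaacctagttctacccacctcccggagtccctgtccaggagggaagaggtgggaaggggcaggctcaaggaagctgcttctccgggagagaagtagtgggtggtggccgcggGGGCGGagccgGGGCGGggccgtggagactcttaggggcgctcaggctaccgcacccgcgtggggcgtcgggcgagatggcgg

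Acly (chr11:100527951-100528250, minus strand): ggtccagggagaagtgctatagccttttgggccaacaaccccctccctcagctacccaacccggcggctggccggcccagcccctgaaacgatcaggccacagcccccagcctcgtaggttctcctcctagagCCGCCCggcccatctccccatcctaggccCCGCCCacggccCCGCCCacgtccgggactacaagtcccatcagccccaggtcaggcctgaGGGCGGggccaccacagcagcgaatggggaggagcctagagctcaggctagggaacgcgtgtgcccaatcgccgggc

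The Acly window held 4 GC boxes, the Acss1 window 2 and the Sirt4 window 0. RefSeq windows were matched for 27 of the 31 genes, some with several starts, and 23 of their 37 windows (62.2%) held a GC box, against 35.7% of all 32851 windows of the same length. This is a description of letters and says nothing about binding.

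None of the 31 genes passed the test between 25 mM and 5 mM glucose: 0 of 31 reached a false discovery rate (FDR) under 0.05 in the quasi-likelihood test of edgeR, against 417 of 21061 genes (1.98%). The lowest FDR among them was 0.0997, for Hdac7. In counts simulated for 3 against 3 replicates, the test called 15 of 99 genes given a log2 change of 1. It called 93 of 98 given a log2 change of 2. Most changes of the smaller size were thus missed in that simulation. It held 20744 genes, and its rates for genes like these 31 alone were not tested. A result of 0 called does not show that none of the genes differed. At an FDR under 0.01 with a fold change over 2, 0 of all genes were called (0%), and DESeq2 called 1387 at that rule. At an unadjusted p under 0.05 stood 5 of the 31 genes (16.1%), against 28.7% of all genes. Of these, Kat6b and Sirt4 were higher at 25 mM (6.45%, against 13.2% of all genes) and Hdac7, Hdac11 and Acss1 were lower (9.68%, against 15.5%). The 3 replicates of one condition lay apart from the 3 of the other for 5 genes (16.1%), Kat6b, Kat7, Hdac8, Sirt4 and Acss1, against 31.8% of all genes. In single libraries, before technical replicates were summed, the conditions overlapped for each of these 5 genes.

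The differences of these genes were smaller than those of the table as a whole, but the sets were not matched for abundance. The table as a whole includes scarcer genes: 21061 were tested, and a filter of at least 1 CPM in 3 replicates kept 16495. Their median absolute log2 fold change was 0.206, against 0.448 over all genes tested, and only Hdac7 differed by more than 2-fold (3.23%, against 17.4%). Of the log2 fold changes, 15 lay above 0 and 16 below, with a median log2 fold change of -0.00914 beside -0.00955 for all genes. For 22 genes the 95% interval of the log2 fold change lay within 1 unit of 0, so a 2-fold difference in either direction was outside it. Standard errors ran from 0.15 for Hdac1 to 0.56 for Sirt6, with a median of 0.225.

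**Figure D1:**
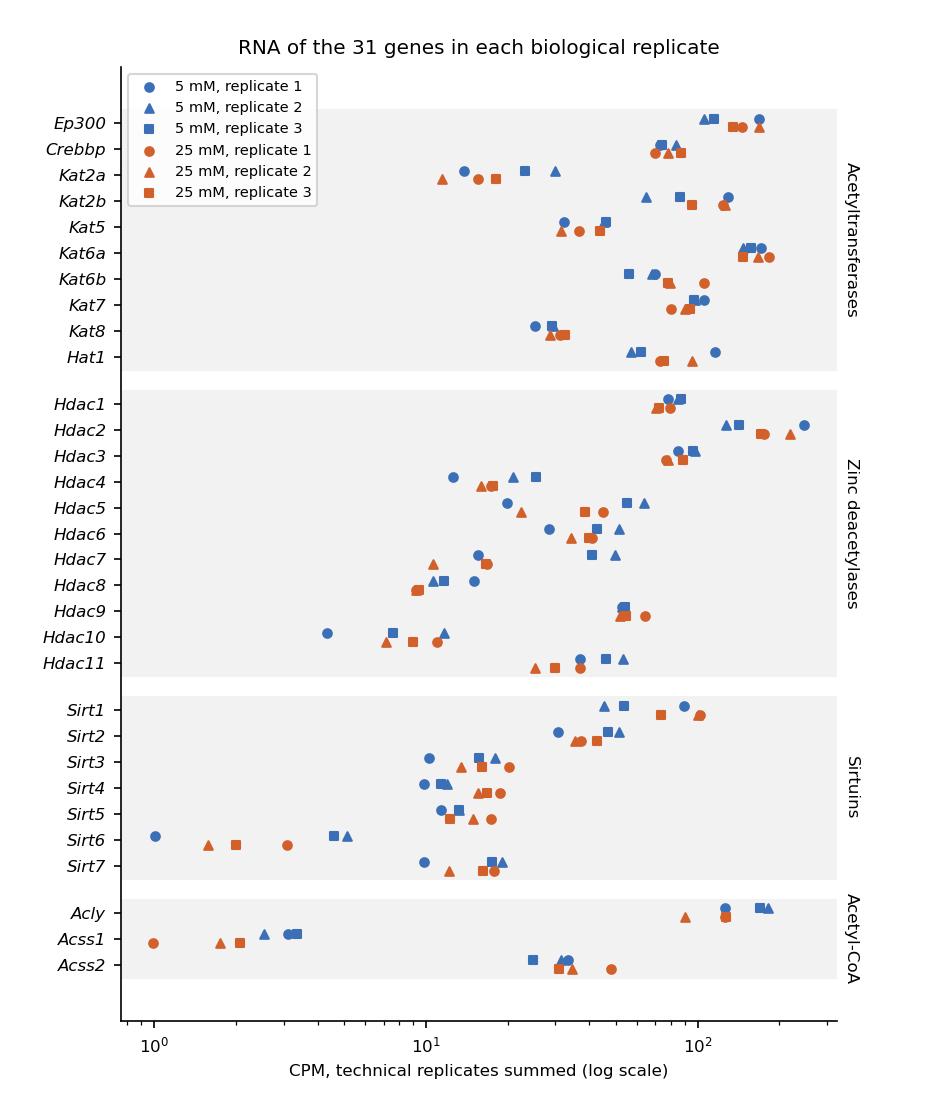
CPM (counts scaled to a common library total, log axis) of the 31 genes in each biological replicate, technical replicates summed. Blue marks are the 3 replicates at 5 mM and orange marks the 3 at 25 mM glucose, with the marker shape giving the replicate number. The 2 conditions overlap for all but 5 genes, and the blue circle of 5 mM replicate 1 often stands at one end of its row.

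Per length of transcript, as TPM (counts divided by length and scaled to a common total) averaged over the 6 replicates, the most abundant of these RNAs was that of Hdac2, at 179.5 TPM. Hat1 followed at 98.2 TPM, Hdac1 at 92.4 TPM, Acly at 87.7 TPM and Hdac3 at 85.95 TPM. Those 4 had overlapping ranges over replicates. The least abundant were Acss1, at 1.34 TPM, and Sirt6, at 3.37 TPM.

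Among the acetyltransferases, the paired coactivators Ep300 and Crebbp, the writers best known for H3K18 and H3K27 acetylation at enhancers and promoters, differed by less than their spread. Ep300 was at 167.7, 106.0 and 115.2 CPM at 5 mM and at 146.2, 167.8 and 134.6 CPM at 25 mM (log2 fold change 0.21, 95% interval -0.28 to 0.69). Crebbp was at 72.4, 83.4 and 73.7 CPM against 69.9, 78.0 and 87.2 CPM (0.03, interval -0.33 to 0.40). Both overlapped between the conditions, and both intervals lay inside a 2-fold difference.

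Kat6b, a histone H3 acetyltransferase of the MOZ and MORF pair, was the writer with the clearest separation. It was at 69.9, 67.7 and 55.7 CPM at 5 mM and at 105.7, 79.2 and 77.6 CPM at 25 mM. All 3 values at 25 mM lay above all 3 at 5 mM, with a log2 fold change of 0.44 (SE 0.19, FDR 0.166). Its partner Kat6a was at 171.7, 146.6 and 157.1 CPM against 183.3, 166.3 and 147.1 CPM, which overlap. The log2 ratio of Kat6b to Kat6a was -1.30 ± 0.19 at 5 mM and -0.93 ± 0.14 at 25 mM (SD, n = 3), a difference of 0.37 with an exact two-sided permutation p of 0.1, the smallest that 3 against 3 allows, and 0.25 after adjustment over 5 such ratios.

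The other writers showed no difference beyond their replicates except Kat7 in its order. Kat7 (HBO1, which acetylates H3K14 and works at replication origins) was at 105.8, 97.6 and 97.4 CPM against 79.9, 89.8 and 94.1 CPM, with a gap of only 97.4 to 94.1 between the groups (log2 fold change -0.19, FDR 0.416). Kat2a and Kat2b, the GCN5 and PCAF acetyltransferases of the SAGA and ATAC complexes, pointed in opposite directions. Kat2a was at 13.8, 29.9 and 23.2 CPM against 15.6, 11.5 and 18.1 CPM (-0.56, SE 0.31, FDR 0.265). Kat2b was at 129.3, 64.7 and 86.4 CPM against 123.7, 126.4 and 95.4 CPM (0.30, SE 0.26, FDR 0.460). In both, 5 mM replicate 1 lay among or near the 25 mM values and away from the other two. Kat5 (Tip60), Kat8 (MOF, the H4K16 acetyltransferase) and Hat1, which acetylates newly made histone H4, had log2 fold changes of -0.14, 0.14 and 0.05. Their FDR values were 0.679, 0.601 and 0.918.

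Hdac7, a class IIa deacetylase that has little enzyme activity of its own and binds MEF2 factors, had the largest difference of the 31 genes. The gene lies at chr15:97792664-97844502 of GRCm38, on the minus strand. It was at 15.5, 49.5 and 41.0 CPM at 5 mM and at 16.8, 10.7 and 16.7 CPM at 25 mM. The first replicate at 5 mM fell within the 25 mM values and the other two stood well above all of them. The log2 fold change was -1.26 (SE 0.41, interval -2.20 to -0.33, FDR 0.0997). With offsets for GC content and length the value was -0.65 (FDR 0.0661), and without 5 mM replicate 1 it was -1.62 (FDR 0.0109). Vascular marker RNA was also lower: the summed level of 8 vascular markers was 748 to 1505 CPM at 5 mM and 314 to 615 CPM at 25 mM, with 8 of 8 markers below 0 in log2 fold change, 0 of 8 called and 0 at a count of 0 in every replicate. The part of these cells in the Hdac7 value was not tested. Exons of Slc48a1 overlap Hdac7 on the opposite strand, and use of strand in counting is not stated, so its counts carry that uncertainty. Transcripts that keep an intron, annotated as not coding, held 66.8% of Hdac7 transcript CPM at 5 mM and 72.4% at 25 mM.

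The other class IIa genes, Hdac4, Hdac5 and Hdac9, did not separate. Hdac4 was at 12.6, 20.9 and 25.5 CPM against 17.4, 15.9 and 17.6 CPM. Hdac5 was at 19.9, 63.4 and 54.8 CPM against 44.7, 22.4 and 38.4 CPM. Hdac9 was at 52.7, 52.5 and 54.0 CPM against 64.3, 52.0 and 54.4 CPM. Their log2 fold changes were -0.21, -0.39 and 0.10, with FDR values of 0.629, 0.559 and 0.690.

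The class I deacetylases are the catalytic subunits of the large nuclear corepressors. Hdac1 was at 78.1, 84.8 and 86.9 CPM against 78.9, 70.0 and 72.4 CPM (log2 fold change -0.17, interval -0.51 to 0.16). Hdac2 was at 247.2, 126.8 and 142.6 CPM against 176.1, 218.6 and 170.6 CPM (0.13, interval -0.48 to 0.74). Hdac3, the enzyme of the NCoR and SMRT complexes, was at 84.9, 97.8 and 96.2 CPM against 76.4, 78.0 and 88.3 CPM (-0.20, interval -0.55 to 0.15). All 3 overlapped between conditions and all 3 intervals excluded a 2-fold difference. Hdac8, whose best known target is cohesin, did not overlap: 15.1, 10.7 and 11.7 CPM against 9.25, 9.20 and 9.43 CPM (-0.43, SE 0.23, FDR 0.251). Its 3 values at 25 mM were close together and all below those at 5 mM. In single libraries it overlapped, at 8.94 to 15.3 CPM at 5 mM and 7.57 to 11.35 CPM at 25 mM.

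Hdac6 deacetylates tubulin in the cytoplasm, HDAC10 acts on polyamines and HDAC11 removes long fatty acyl groups. Hdac11 was at 37.0, 53.4 and 45.9 CPM at 5 mM and at 37.1, 25.2 and 29.9 CPM at 25 mM, so that 5 mM replicate 1 met the highest value at 25 mM. Its log2 fold change was -0.56 (SE 0.22, FDR 0.138), and -0.10 with GC content and length offsets. Hdac6 and Hdac10 had log2 fold changes of -0.09 and 0.20, with FDR values of 0.817 and 0.741. By class, 8 of the 11 zinc-dependent deacetylases lay below 0 and 3 above, with a median of -0.201, and with offsets for GC content and length 7 lay below 0 with a median of -0.0794. Without 5 mM replicate 1 it was 9 below and 2 above, with a median of -0.268.

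Of the sirtuins, Sirt4 had the clearest separation. It encodes a mitochondrial sirtuin with weak deacetylase activity and lies at chr5:115478010-115484725 of GRCm38, minus strand. Its RNA was at 9.83, 12.02 and 11.4 CPM at 5 mM and at 18.8, 15.6 and 16.9 CPM at 25 mM. Every value at 25 mM was above every value at 5 mM, with a log2 fold change of 0.63 (SE 0.21, interval 0.15 to 1.10, FDR 0.103). Over the 21 alternative settings the value lay between 0.37 and 0.98 and the FDR between 0.0260 and 0.538. It was under 0.05 in 4 of them, offsets for GC content and length (0.64, FDR 0.0401) among them, and adding the replicate block to those offsets gave an FDR of 0.0609. In single libraries Sirt4 lay between 7.84 and 14.6 CPM at 5 mM and between 13.6 and 19.8 CPM at 25 mM.

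Most of this Sirt4 RNA was not assigned to coding transcripts. In the transcript table, 73.3% to 88.7% of Sirt4 CPM at 5 mM and 86.8% to 88.1% at 25 mM lay on retained-intron transcripts, which keep an intron and are annotated as not coding for the protein. The most abundant, Sirt4-206 of 733 bases, was at 7.83, 8.12 and 7.37 CPM against 12.2, 11.8 and 12.2 CPM (log2 fold change 0.64, SE 0.20, FDR 0.238). Both coding transcripts were at 2.28 CPM or less in every replicate, and their log2 fold changes were 0.64 for Sirt4-202 and -1.08 for Sirt4-201. The higher level of the gene was thus measured mostly on transcripts that do not encode SIRT4.

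Sirt1, the nuclear sirtuin that deacetylates histones and transcription factors, was at 89.0, 45.4 and 53.6 CPM against 102.0, 100.1 and 73.2 CPM. Here 5 mM replicate 1 lay inside the 25 mM values and the other two below all of them. The log2 fold change was 0.55 (SE 0.27, FDR 0.217), and 0.20 with GC content and length offsets. Coding transcripts held 35.9% of Sirt1 transcript CPM at 5 mM and a lower share at 25 mM. The most abundant transcript, Sirt1-205, is annotated for nonsense-mediated decay and not as coding. It was at 66.9, 24 and 28.7 CPM against 61.7, 68.2 and 48.2 CPM. Sirt6, which removes acetyl groups from H3K9 and represses glycolytic genes, was at 1.012, 5.11 and 4.62 CPM against 3.08, 1.59 and 2.01 CPM (-0.68, SE 0.56, FDR 0.440). Sirt7, known for H3K18 deacetylation, was at 9.88, 19.1 and 17.5 CPM against 17.8, 12.2 and 16.3 CPM (-0.01, SE 0.30). Sirt6 and Sirt7 each had their lowest value of all 6 replicates in 5 mM replicate 1. Sirt2, a mainly cytoplasmic tubulin deacetylase, and the mitochondrial Sirt3 and Sirt5 had log2 fold changes of -0.16, 0.18 and 0.24, with FDR values of 0.646, 0.688 and 0.494. In all, 4 sirtuins lay above 0 and 3 below, with a median of 0.178, with -0.0254 (3 above and 4 below) without 5 mM replicate 1 and 0.237 (6 above and 1 below) with GC content and length offsets.

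The 3 acetyl-CoA enzymes differed among themselves. Acly was at 126.4, 181.2 and 170.3 CPM at 5 mM and at 125.8, 89.8 and 127.2 CPM at 25 mM. Its first 5 mM replicate met the 25 mM values and the other two were above them (log2 fold change -0.48, SE 0.21, interval -0.96 to 0.002, FDR 0.176). Acss1 was at 3.11, 2.54 and 3.36 CPM against 1.00, 1.75 and 2.08 CPM, with no overlap (-0.90, SE 0.33, FDR 0.130). It was the scarcest of the 31 RNAs, and exons of E130215H24Rik overlap it on the opposite strand. Acss2 was at 33.2, 31.4 and 24.9 CPM against 48.2, 34.6 and 30.9 CPM, which overlap (0.35, SE 0.22, FDR 0.330), and it shares exon sequence on the opposite strand with Acss2os, Ggt7 and Gss. The log2 ratio of Acss2 to Acss1 was 3.31 ± 0.38 at 5 mM and 4.597 ± 0.89 at 25 mM (SD, n = 3), a difference of 1.28 with an exact two-sided permutation p of 0.1, the smallest possible here, and 0.25 after adjustment over the 5 ratios. The ratios of Crebbp to Ep300, Kat2b to Kat2a and Hdac2 to Hdac1 overlapped between conditions, with exact permutation p values of 0.7, 0.3 and 0.4.

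**Figure D2:**
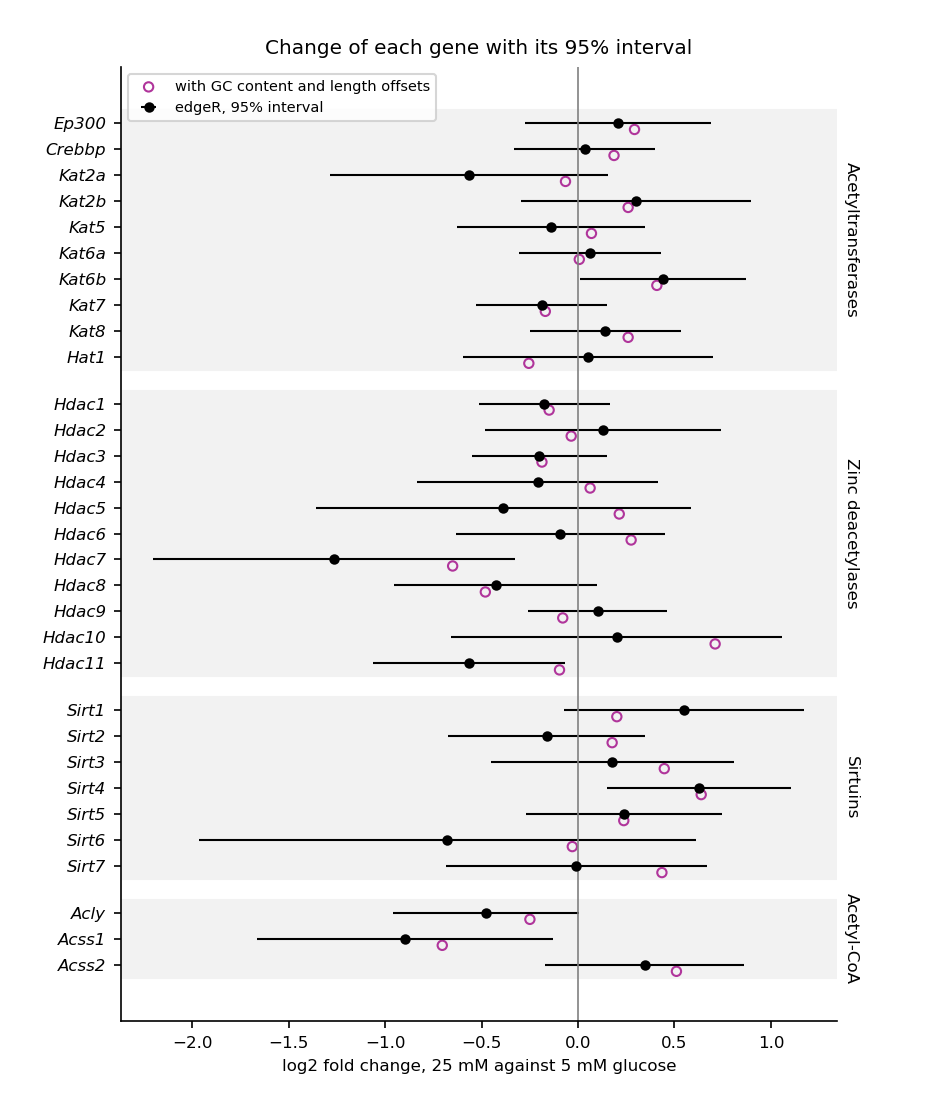
Log2 fold change (25 mM against 5 mM glucose) of each gene from edgeR, with its 95% interval as a horizontal line (black), and the value with offsets for GC content and length (open circles). The intervals of 5 genes exclude 0, and the open circle lies nearer to 0 than the black point for Hdac7, Hdac11 and Kat2a but not for Sirt4.

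One replicate weighed on many of these values. The replicate of 5 mM glucose numbered 1 was the farthest from the median of its group in 26 of the 31 genes, against 64.1% of all genes. It was above both other replicates in 10 genes and below both in 19. The deviation followed the GC content of the transcripts: across the 31 genes Pearson's r between GC content and the log2 deviation of this replicate was -0.879, and -0.664 across all 20301 genes with a GC value. Genes are not independent replicates and all these points share 1 library pair, so r is given as a description. For the log2 fold change between conditions, r was -0.558 across the 31 genes and -0.394 across all genes. For the 31 genes it was 0.0738 once GC content and length offsets were in the fit, and -0.762 without 5 mM replicate 1. The offsets are fitted to GC content and length over all genes, so a weaker correlation follows from their construction. They would also take out a difference between conditions that tracks GC content. Replicate 2 of 25 mM glucose shared part of this pattern. Its deviations from the group mean correlated with those of 5 mM replicate 1 at 0.511 across genes. Within its group it was the lowest in all 7 genes over 55% GC. Of the genes under 47% GC, it was the highest for Kat2b, Hat1 and Hdac2 but not for Hdac9 or Sirt1.

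The 7 genes over 55% GC were Kat2a, Hdac5, Hdac7, Hdac10, Hdac11, Sirt6 and Sirt7. In all 7, 5 mM replicate 1 lay below both other replicates, and their median log2 fold change was -0.564. It was -0.0299 with offsets and -0.748 without that replicate, so leaving the replicate out enlarged the difference and the offsets shrank it. The 5 genes under 47% GC were Kat2b, Hat1, Hdac2, Hdac9 and Sirt1. In 4 of the 5 that replicate lay above both others, and their median was 0.13, with -0.0356 under offsets and 0.483 without that replicate. With GC content and length offsets 1 of the 31 genes was called, Sirt4, against 14.1% of all genes. Without that replicate 6 were called, Sirt1 higher and Kat2a, Hdac7, Hdac11, Sirt6 and Acly lower at 25 mM, against 26.6% of all genes. The values of the genes called in only one of these 2 fits were on the same side of 0 in the other, but several lay near 0. Sirt4 was at 0.55 (FDR 0.0773) without the replicate, and Hdac7 at -0.65 (FDR 0.0661) with offsets. With offsets Kat2a was at -0.07 (FDR 0.778), Hdac11 at -0.10 (FDR 0.715) and Sirt6 at -0.03 (FDR 0.965). Sirt1 was at 0.20 (FDR 0.254) and Acly at -0.25 (FDR 0.219) with offsets.

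**Figure D3:**
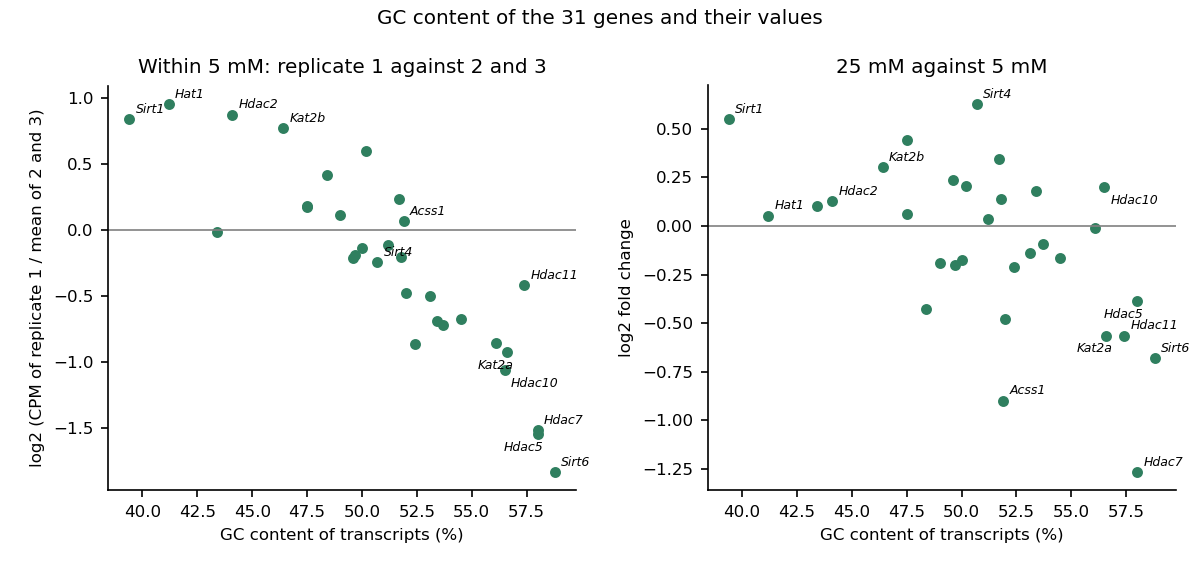
GC content of the transcripts (%) against the log2 ratio of 5 mM replicate 1 to the mean of replicates 2 and 3 (left) and against the log2 fold change of 25 mM over 5 mM (right), with 1 point for each of the 31 genes. The left panel falls from near 1 at the lowest GC content to below -1.5 at the highest (r = -0.879). The right panel also falls (r = -0.558, and -0.762 when 5 mM replicate 1 is left out of the fit).

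Other settings called few of the 31 genes, and Hdac7 and Sirt4 most often. DESeq2 called Hdac7 (FDR 0.0228) and Sirt4 (FDR 0.0260), against 16.6% of all genes. A fit of the 12 libraries with a batch term, which treats technical replicates as separate, called the same pair, against 15.6% of all genes. With no filter on low counts Hdac7 was called (5.63% of all genes), and with the replicate block and GC content and length offsets Acss2 was (16.3%). In each of these the share of the 31 genes that was called was below that of all genes.

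Within batches, 10 of the 31 genes had log2 fold changes of opposite sign. In batch 1 alone Sirt4 (0.98) and Acss2 (0.96) were called, against 17.3% of all genes, and in batch 2 alone their values were 0.37 and -0.21. Acss2 was at 23.2, 24.7 and 20.9 CPM in batch 1 at 5 mM and at 52.1, 45.3 and 37.5 CPM in batch 1 at 25 mM. In batch 2 it was at 46.4, 39.9 and 28.4 CPM against 46.1, 29.0 and 24.6 CPM. The 5 mM libraries of batch 2 were thus higher than those of batch 1, and the 25 mM libraries were lower. Hdac5 had values of 0.13 and -0.87 in the 2 batches, whereas Hdac7 was at -1.25 and -1.22 and Kat2a at -0.57 and -0.54. A test of the difference between batches, chosen after seeing the data, called 0 of 18725 genes and 0 of the 31. At an unadjusted p under 0.05 stood 7 of the 31 (22.6%, against 16.3% of all genes), with the lowest p for Acss2 (0.00196, FDR 0.173) and Hdac5 (0.00307, FDR 0.178).

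**Figure D4:**
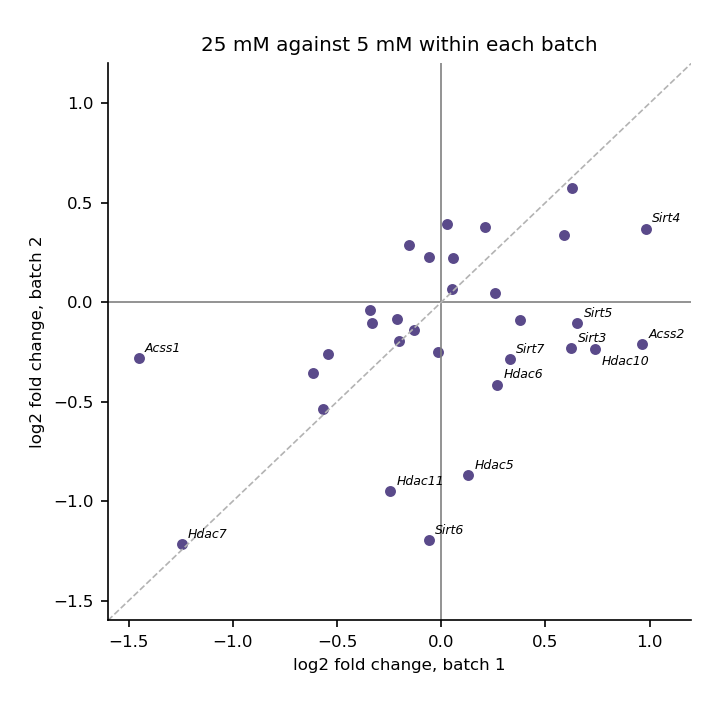
Log2 fold change of each of the 31 genes within batch 1 (horizontal axis) and within batch 2 (vertical axis), 3 libraries against 3 in each. The dashed line marks equal values. Hdac7 lies on the line, whereas Acss2, Sirt3 and Hdac10 lie above 0 in batch 1 and below 0 in batch 2.

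At the level of transcripts, 169 transcripts of these genes were tested among 64990, and 0 were called, as were 0 of all transcripts (0%). At an unadjusted p under 0.05 stood 21 (12.4%, against 16.4% of all transcripts), from 13 genes, with a lowest FDR of 0.214 for Kat2a-201. DESeq2 called 9 of the 169, against 6.86% of all transcripts. The coding transcript Hdac1-201 was at 77.5, 85.1 and 83.0 CPM against 52.6, 57.7 and 62.4 CPM, which do not overlap (log2 fold change -0.51, SE 0.16, FDR 0.234), whereas the whole gene overlapped. The coding transcript Kat2a-201 was at 5.17, 7.56 and 3.94 CPM against 1.21, 0.590 and 0.175 CPM (-3.08, SE 0.70).

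Coding and retained-intron transcripts of these genes lay on opposite sides of 0, as they did in the whole table. The 80 coding transcripts had a median log2 fold change of -0.285, against -0.245 over all 32114 coding transcripts. At an unadjusted p under 0.05, 3 were higher and 7 lower, against 4.78% and 13.9% of all coding transcripts. The 64 retained-intron transcripts had a median of 0.322, against 0.245 over all 15157. Of these, 5 were higher and 3 lower, against 11.7% and 2.84%. Assignment of reads to overlapping transcripts is an estimate, and the libraries were made from total RNA, in which unspliced RNA is also present.

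The share of a gene's RNA on retained-intron transcripts, a measure added after seeing the data, could be taken for 23 of the 31 genes. The mean share was higher at 25 mM in 22 of them (95.7%, against 81.2% of 7231 genes) and lower only in Hdac11. It lay above every 5 mM replicate in 8 (34.8%, against 33.2%) and below every one in 0 (1.13% of all genes), so the separated genes were about as frequent here as elsewhere. Those 8 were Crebbp, Kat6b, Hdac1, Hdac3, Hdac4, Sirt2, Sirt7 and Acss2. For Crebbp the share was 2.54%, 2.59% and 2.69% at 5 mM and 4.10%, 4.08% and 4.15% at 25 mM. For Sirt7 it was 61.7%, 53.3% and 57.0% against 75.2%, 86.2% and 69.7%. Exons of Mafg and Mir6936 overlap Sirt7 on the same strand, so its shares carry that uncertainty. Sirt2 went from 5.61%, 3.85% and 4.97% to 11.1%, 13.4% and 9.49%.

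**Figure D5:**
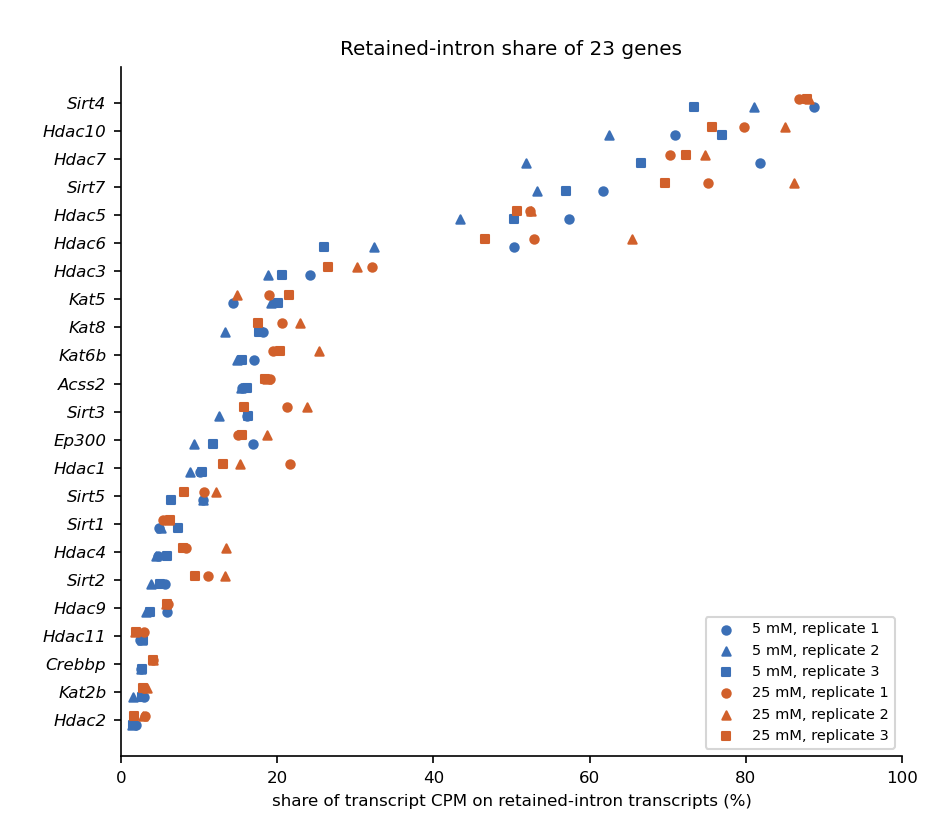
Share of each gene's transcript CPM on retained-intron transcripts (%), for the 23 genes with such a transcript, in each biological replicate (blue 5 mM, orange 25 mM). Sirt4, Hdac10, Hdac7 and Sirt7 sit at the high end, above 50% in every replicate, and the orange marks lie to the right of all blue ones in 8 genes.

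Genes that work with these enzymes were counted from 5 further lists. In each, the share at an unadjusted p under 0.05, with both directions together, was below the 28.7% of all genes. By direction this did not hold. The share lower was above the 15.5% of all genes for corepressor subunits, acyl-CoA genes and NAD+ genes. The share higher was above the 13.2% of all genes for readers. All these shares rest on few genes. Of 43 subunits of acetyltransferase complexes, 0 were called and 2 higher and 1 lower at 25 mM stood at that p (6.98%), with Tada2a at 0.54 (FDR 0.0950) and Taf10 at -0.73 (FDR 0.177) as the extremes. Of 36 tested subunits of deacetylase corepressors, 0 were called, with 1 higher and 8 lower at that p (25%, against 13.2% higher and 15.5% lower over all genes). The extremes were Sap30 at 0.51 (FDR 0.237) and Mbd3, a subunit of NuRD, at -1.84 (SE 0.74, FDR 0.153). Mbd3 was at 2.89 CPM in 5 mM replicate 1 and at 24.6 and 16.9 CPM in the other two, against 5.15, 1.53 and 5.70 CPM at 25 mM.

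Of the 32 readers of acyl marks, 6 were higher and 2 lower at that p (25%), and 1 was called, where 1.98% of all genes were. Cecr2, a bromodomain protein of an ISWI remodelling complex, rose from 37.4, 27.8 and 32.8 CPM to 93.9, 67.6 and 60.7 CPM (log2 fold change 1.18, SE 0.22, FDR 0.0433). Its conditions did not overlap. No gene of the whole table, Cecr2 and Nnmt included, was called when 5 mM replicate 2 or 3 or 25 mM replicate 1 or 2 was left out. Dpf3 of the BAF complex had the largest value, 1.32 (FDR 0.0560), and the BAF ATPase Smarca4 the lowest, -0.96 (FDR 0.115).

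Nnmt, which methylates nicotinamide and so takes it out of NAD+ recycling, was the other called gene. It fell from 1.52, 2.42 and 3.06 CPM to 0.301, 0.602 and 0.611 CPM (log2 fold change -2.21, SE 0.41, FDR 0.0439). Of the 15 tested genes of NAD+ supply and use, 1 was higher and 3 lower at that p (26.7%), with the mitochondrial NAD kinase Nadk2 at 1.10 (FDR 0.0594) as the highest. Of 26 genes of acyl-CoA supply and lactyl transfer, 0 were called, with 0 higher and 5 lower at that p (19.2%). Acss3 was the highest at 0.55 (FDR 0.197), and Acacb, an acetyl-CoA carboxylase, the lowest at -1.45 (FDR 0.121).

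Marker RNA of the retinal cell types was summed per replicate. The 10 rod markers summed to 2977 to 5470 CPM at 5 mM and to 6571 to 8717 CPM at 25 mM, with 10 of 10 above 0 in log2 fold change and 5 of 10 called. The 6 cone markers summed to 33.2 to 40.3 CPM against 48.5 to 69.2 CPM, with 1 of 6 called. Sums also lay apart for 7 amacrine markers (457 to 546 against 278 to 410 CPM) and for markers of retinal pigment epithelium, the tissue removed at dissection (14.9 to 15.8 against 7.53 to 11.0 CPM), with 0 called in either list. Of the 6 pigment epithelium markers 5 were tested, without Rpe65. Sums of 7 microglial markers overlapped, at 83.3 to 181 CPM against 47.2 to 99.6 CPM, with 7 of 7 below 0 and 0 called. Those of bipolar, ganglion and Mueller glia markers overlapped too, with 0 called. No marker list had a gene at 0 in every library. The part of these cell types in the values of the 31 genes was not tested.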

How the data were processed

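RNA of 12 libraries of retinal explants was sequenced by the authors from total RNA with a stranded low-input kit. The authors deposited expected counts (estimated counts, mostly not whole) per gene and per transcript, not normalized between libraries. The counting tool and annotation are not given in the sources used here, and neither is use of strand. The labels name build GRCm38. A library held 17998905 to 36692484 counts at 5 mM glucose, and 14815285 to 23129541 at 25 mM. The totals limit counting error only. Counts are reads without molecular identifiers.

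Technical replicates were summed and rounded to whole numbers, since the values are expected counts. Counts were filtered with filterByExpr, scaled by TMM and compared in edgeR 4.0.16 (R 4.3.3) with its quasi-likelihood test in the legacy setting and no term for the replicate number. P-values were adjusted after Benjamini and Hochberg over all features tested. A prior count of 2 was used only for log CPM in the pairing check and in the GC content and length offsets. GC content, lengths, exon overlaps and transcript types came from GENCODE M21, which named 48766 of 53707 genes (90.8%). Besides Hdac7, Acss1 and Acss2, exons of other genes overlap Kat5, Kat8, Hdac4, Hdac11, Sirt1, Sirt2 and Sirt3 on the opposite strand. On the same strand they overlap Ep300, Hdac5 and Sirt7. DESeq2 1.42.0, limma 3.58.1, other scalings, filters, batches and left-out replicates were alternatives. The procedure was tested on simulated data. Python 3.11.15, pandas 2.3.3, numpy 2.4.6, scipy 1.17.1 and matplotlib 3.10.9 were used for tables and plots. CPM use TMM factors.

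The 31 genes and all lists were chosen with earlier results of these data known. Named beyond them are, in each related list, called genes and the genes with the largest rise and largest fall. Values named for single transcripts, batches and marker sums were chosen after they were seen. Mideas and Nnt were not matched, and Qprt and the pigment epithelium marker Rpe65 had too few counts to be tested. Of the columns, 0 were left unused. Replicate numbers were checked for pairing, and same-numbered replicates did not all deviate together.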

Additional observations from a re-analysis of the deposited data

Results flagged for a closer look

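Among 62 groups of 6 libraries (31 genes at each glucose level), 2 had a single library far from the other 5, where chance gives about 3.1 at a rate of 1 in 20. Crebbp stood at 90.2 CPM in the batch 1 library of 5 mM replicate 2, while the other libraries at 5 mM lay between 70.0 and 75.4 CPM. Kat8 stood at 21.5 CPM in the batch 1 library of 5 mM replicate 1, and the others lay between 28.1 and 30.0 CPM.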

How the results depend on the processing

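Over the 21 alternatives, 651 values of the 31 genes were computed: 582 kept their direction and their side of the threshold, 15 passed it and 54 turned sign. Direction held under every alternative for 15 genes (Acly, Acss1, Ep300, Hdac1, Hdac3, Hdac7, Hdac8, Hdac11, Kat2a, Kat2b, Kat6b, Kat7, Kat8, Sirt1 and Sirt4). Against 417 genes called, DESeq2 called 3489, no filter on low counts 1979, 12 libraries with a batch term 2918, batch 1 alone 3279, batch 2 alone 0, the first library alone for 5 mM replicate 1 1731, offsets for GC content and length 2854, and an FDR under 0.01 with a 2-fold change 0. At an unadjusted p under 0.05, 2203 genes stood in batch 2 alone. Of the 31 genes, DESeq2, the batch term and batch 1 alone called 2 each, and no filter, the offsets, and an FDR under 0.1 called 1 each. Leaving out 1 replicate gave 0 to 5845 genes and 0 to 6 of the 31, with both highest counts without 5 mM replicate 1. The fits that called 0 genes, without 5 mM replicate 2 or 3 or 25 mM replicate 1 or 2, had 3813 to 4071 genes at an unadjusted p under 0.05. Of the 169 transcripts of these genes, DESeq2 called 9 where edgeR called 0, against 6.86% of all transcripts called by DESeq2. The cause of these shifts was not tested.

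The labels do not say whether replicate numbers pair samples. Same-numbered replicates correlated at -0.0138, -0.449 and 0.285 in their deviations, and not every replicate correlated best with its own number. With the replicate block, 990 genes were called and 0 of the 31, and Sirt7 was at 0.026. With the block and offsets together, 3301 genes and 1 of the 31 were called, and the reversed values were 0.0677 for Kat5, -0.245 for Hat1, -0.0225 for Hdac2, 0.0935 for Hdac4, 0.222 for Hdac5, 0.281 for Hdac6, -0.0733 for Hdac9, 0.177 for Sirt2, 0.025 for Sirt6 and 0.43 for Sirt7.

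Offsets alone reversed Kat5 to 0.0694, Hat1 to -0.255, Hdac2 to -0.0356, Hdac4 to 0.0625, Hdac5 to 0.214, Hdac6 to 0.275, Hdac9 to -0.0794, Sirt2 to 0.177 and Sirt7 to 0.435. Batch 1 alone reversed Kat6a to -0.155, Hat1 to -0.058, Hdac5 to 0.13, Hdac6 to 0.269 and Sirt7 to 0.329, and batch 2 alone reversed Hdac9 to -0.0906, Hdac10 to -0.233, Sirt3 to -0.232, Sirt5 to -0.104 and Acss2 to -0.211. Transcript counts summed per gene reversed Crebbp to -0.0578 and Kat6a to -0.12, and the first library alone Hat1 to -0.0343 and Sirt7 to 0.00671. Sirt7 also turned sign with library totals (0.04), limma-voom (0.0537), at least 1 CPM in 3 replicates (0.0417) and the batch term (0.0319).

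Leaving out 1 replicate turned the sign of 9 genes. Under these fits Crebbp lay between -0.0525 and 0.119, Kat6a lay between -0.00775 and 0.137, Hat1 lay between -0.141 and 0.447, Hdac2 lay between -0.0589 and 0.483, Hdac4 lay between -0.45 and 0.0104, Hdac6 lay between -0.298 and 0.0973, Hdac10 lay between -0.093 and 0.591, Sirt3 lay between -0.0254 and 0.342 and Sirt7 lay between -0.251 and 0.157.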

Other observations

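Summed per class as TPM, the RNA of the 10 acetyltransferases was 519.7, 457.9 and 452.1 TPM at 5 mM and 573.2, 507.2 and 535.1 TPM at 25 mM. The 11 zinc-dependent deacetylases summed to 507.9, 574.7 and 535.4 TPM against 576.6, 471.1 and 527.5 TPM. The 7 sirtuins summed to 145.5, 185.5 and 170.1 TPM against 253.4, 187.1 and 204.7 TPM, with every value at 25 mM above every value at 5 mM. The 3 acetyl-CoA enzymes summed to 105.9, 149.1 and 129.4 TPM against 140.3, 87.5 and 117.9 TPM. For the sirtuins the nearest values of the 2 conditions were only 185.5 and 187.1 TPM. The sirtuin sum includes the retained-intron RNA of Sirt4 and Sirt7 and the Sirt1 RNA outside coding transcripts, and it was not tested.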
